A study of Mus musculus with 4 samples.

Results

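Potassium channel genes were examined in 4 bulk RNA sequencing libraries of cortical microglia taken from mouse embryos on embryonic day 16. Members were the protein-coding genes whose symbol begins with Kcn followed by a family letter. The rule matched 78 genes, Kcnj8 was left out, and 77 remained of 21981 genes in the deposited tables. The controls (control 1 and control 6) were Bach1 fl/fl, the floxed allele of the heme-binding repressor gene Bach1. Those labelled cKO (cKO 2 and cKO 5) were Bach1 conditional knockouts named for a Cx3 driver, and all 4 were labelled untreated. The labels do not say whether a library is 1 animal or a pool, or how the cells were isolated, so p-values measure only the spread between these samples, which may be technical.

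Potassium channels let potassium leave the cell along its gradient and so set or restore the membrane potential. Neurons use a large set of voltage-gated and calcium-activated channels to shape firing, with auxiliary subunits that tune them. Microglia carry fewer kinds, chiefly two-pore (K2P) leak channels and some inward rectifiers, which hold the resting potential and are known for roles in process movement and in inflammasome activation.

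The libraries held between 17233115 and 19305078 reads, at which 3 reads correspond to 0.155 to 0.174 CPM (a gene's reads divided by its library's total and set to a fixed depth; such floors cover counting error only). The 16 microglia markers summed to 26707 CPM in control 1 and 42321 in control 6, against 9602 in cKO 2 and 37362 in cKO 5 (the order of libraries used from here on). The 16 neuron markers summed to 1634, 534, 5709 and 485 CPM, while for 7 endothelial markers the sums were 2993, 560, 2322 and 309 CPM. No marker of these lists was at 0 in any library. The library cKO 2 therefore stood apart, with the least microglial and the most neuronal RNA, and results are given with and without it. Control 1, which held the most endothelial marker RNA, stays in the comparison without cKO 2. Bach1 itself had control values of 45.8 and 21.6 CPM beside cKO values of 29.98 and 35.4. The labels do not name the floxed exons, and a whole-gene count, which can hold reads from outside them, does not check the genotype. In bulk RNA, fewer cells of a type and less RNA per cell cannot be told apart.

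Of the 77 members, 65 had a count in every library and 48 had a read in every library. The filter on low counts left 58 for testing, and none of the other 19 exceeded 74 reads in any library. The highest of the 4 values lay in cKO 2 for 56 of the 77 members, where it did so for 45.4% of all genes in the tables. Control 1 held the highest value of 11 members, control 6 of 5 and cKO 5 of 5. At 1 CPM or more, 62 members were found in cKO 2, 44 in control 1, 29 in control 6 and 29 in cKO 5. All members together gave 568, 371, 745 and 384 CPM. Control 6 and cKO 5, 1 library of each genotype, were thus close in their total of channel reads and in how many channels they showed.

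**Figure D1:**
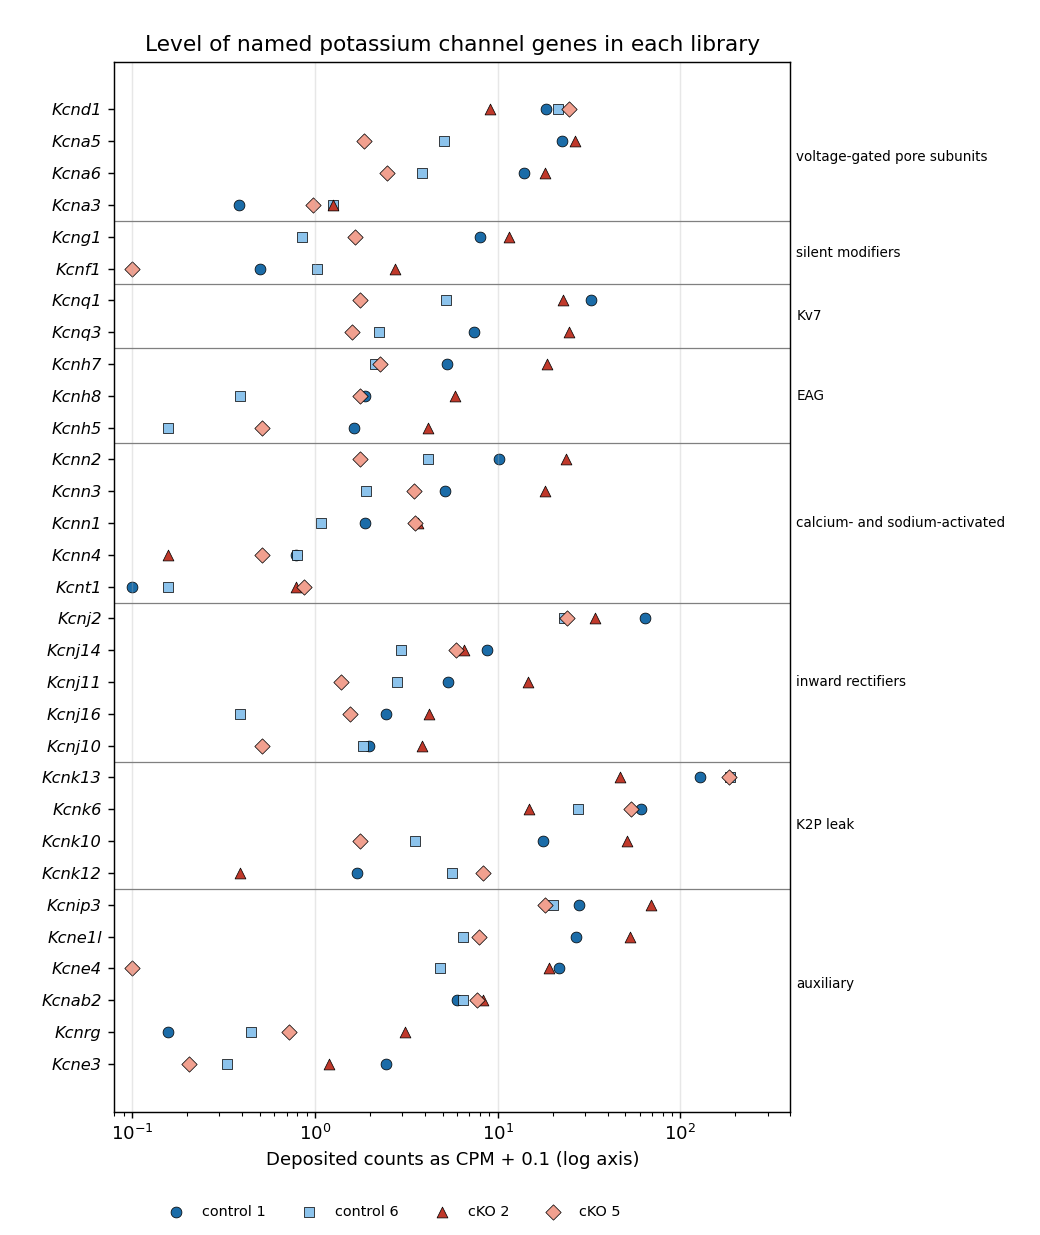
CPM + 0.1 of 31 named potassium channel genes on a log axis, one symbol per library, grouped by family; each point is 1 library. Red triangles (cKO 2) lie furthest right in most rows, and for Kcnk13, Kcnk6, Kcnd1, Kcnk12 and Kcnn4 they lie furthest left.

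The comparison of cKO with control addresses how deleting Bach1 changes gene expression in microglia. No member passed the threshold: 0 of 58 had an adjusted p under 0.05 in edgeR's quasi-likelihood test, against 0% of all 15951 genes tested in either direction. None had an unadjusted p under 0.05 in edgeR, DESeq2 or limma-voom, where edgeR gave 0.176% of all genes as higher and 0.132% as lower at that level. The adjusted p was 0.9997 for every member tested. Positive log2 fold changes were found for 43 members and negative ones for 15, with a median of 0.81 against 0.03 over all genes tested, of which 52.8% were positive. Without cKO 2 the median of the members was −1.04 over 59 tested, and 30 of the 58 changed sign, 27 of them from positive to negative. Kcnd1, Kcnk13 and Kcnk6 went the other way. The 6 members with no read in cKO 5 leave that median at −1.04 when each is set at 3 reads there. Over all genes tested without cKO 2, 47.9% were positive. Without cKO 5, in contrast, 11 of 62 members had an unadjusted p under 0.05 in edgeR, where 4.98% of all genes were higher and 5.49% lower at that level, and none passed the adjusted threshold.

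**Figure D2:**
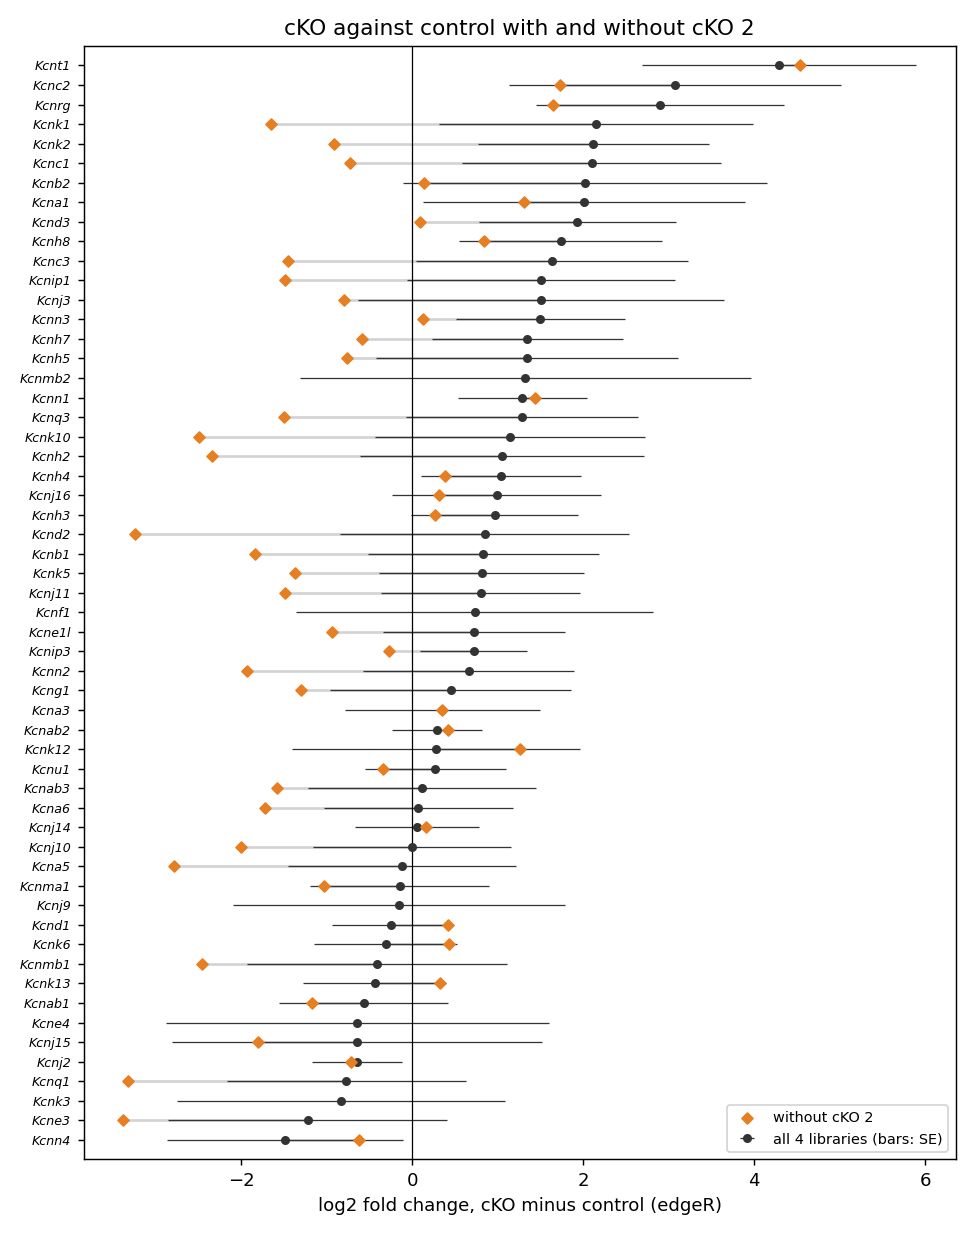
log2 fold change of cKO against control for 56 of the tested genes from all 4 libraries (black, bars are SE) and without cKO 2 (orange diamonds, not drawn for genes with no read in cKO 5). Most diamonds lie left of the black point, and those of Kcnd1, Kcnk13, Kcnk6 and Kcnk12 are among the few to its right.

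The groups did not overlap for 9 members on the scale of normalized CPM. Both cKO libraries lay above both controls for 8 of 58 members (8.33% of all genes tested) and below them for 1, Kcnn4 (7.64%). Only Kcnab2 of these had a mean of at least 5 CPM. Kcnab2 encodes a beta subunit that binds voltage-gated channels in the cytoplasm. It had control values of 5.89 and 6.33 CPM beside cKO values of 8.20 and 7.61, and group means of 6.11 ± 0.304 for control and 7.91 ± 0.416 for cKO (SD over 2 libraries). Its log2 fold change was 0.29 ± 0.53 (SE). Kcnn1, a small-conductance calcium-activated channel gene, had control values of 1.77 and 0.986 CPM beside cKO values of 3.58 and 3.42. Its log2 fold change was 1.29 ± 0.75. The 2 cKO libraries of Kcnab2 and Kcnn1 thus had nearly equal values although their neuron marker levels differed. Kcnt1, a sodium-activated channel gene of neurons, had the smallest unadjusted p of the members (0.0508 in edgeR). It had 0 and 1 read in the controls and 12 and 15 reads in the cKO libraries. The ratio was 25.6 after scaling to library totals, with a 95% counting interval of 4.22 to 1048. That interval leaves out the spread between libraries, and the adjusted p of Kcnt1 in edgeR was 0.9997. Kcnrg, which encodes a cytoplasmic regulator of voltage-gated channels, had control values of 0.0572 and 0.348 CPM beside cKO values of 3.004 and 0.622, with a log2 fold change of 2.90 ± 1.45 and 1.65 without cKO 2.

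In the authors' deposited table of cKO 2 against control 1, 46 of 75 members were called up and 6 down, where 20% and 11.6% of all genes in that table were called. For cKO 2 against control 6 the authors' deposited table called 58 of 73 members up and 5 down, beside 33.7% and 13.4% of all its genes. With cKO 5 in place of cKO 2 the balance turned: the authors' deposited table against control 1 called 7 of 65 members up and 35 down, beside 8.79% and 26% of all genes. Against control 6 it called 14 of 66 up and 23 down, beside 9.23% and 11.4%. These 4 tables share libraries, and each sets 1 library against 1 library. In the authors' deposited tables, 36 of the 77 members were called up in at least 1 table and down in another, beside 20.5% of all 21981 genes. In the authors' deposited tables Kcnh1 and Kcnt1 were called up in all 4 (0.769% of all genes) and no member was called down in all 4 (0.482%). Kcnh1, an ether-a-go-go channel gene noticed after its values were seen, had no read in either control and 28 and 6 reads in cKO 2 and cKO 5.

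Since libraries of the same genotype differed, members were described by the order of their 4 values of normalized CPM. Neural order was taken as cKO 2 highest with control 1 next, microglial order as cKO 2 lowest, and vessel order as control 1 highest with cKO 2 next. All 16 neuron markers showed neural order, all 16 microglia markers showed microglial order, and 6 of 7 endothelial and 6 of 6 pericyte markers showed vessel order. Of the 58 members, 26 had neural order (24.2% of all genes tested had it), 5 had microglial order (33.2%), 7 had vessel order (10.2%) and 20 had none of these (32.4%). The orders were defined with earlier results of these same libraries known, so the marker counts are no check on their names. The orders describe single genes, and no test was made on them. Channels listed from background knowledge as neuronal divided into 14 of neural, 0 of microglial and 1 of vessel order and 11 of none, among 26 tested. The 5 listed as microglial divided into 3 of microglial order (Kcnk13, Kcnk6 and Kcnn4), 1 of vessel order (Kcnj2) and 1 of none (Kcna3).

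**Figure D3:**
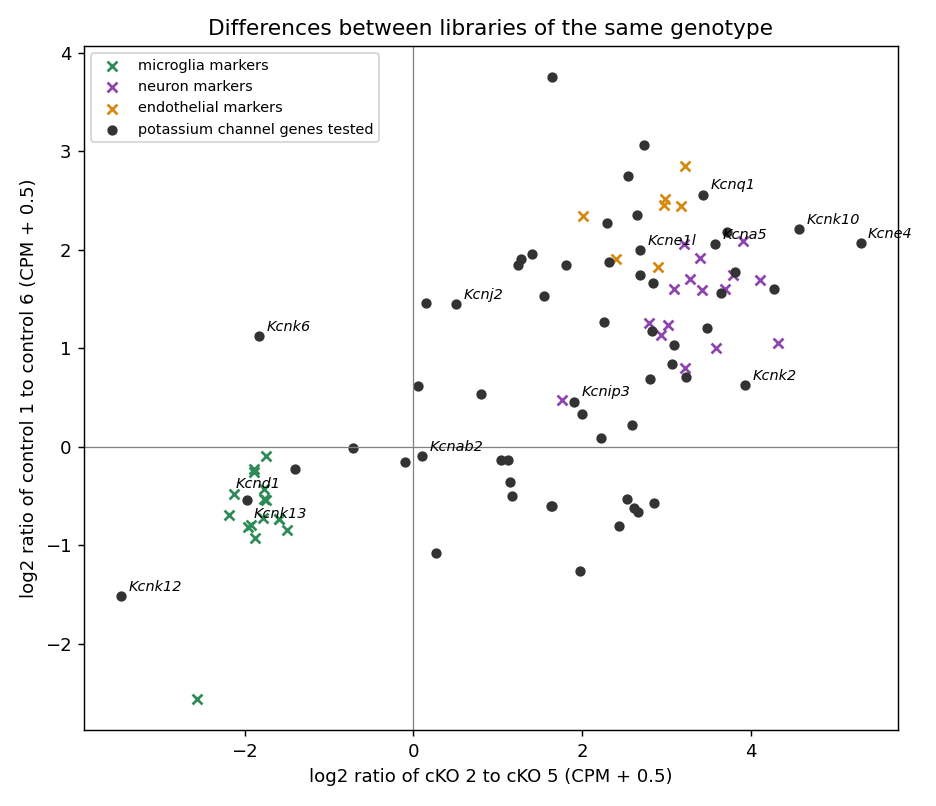
log2 ratio of cKO 2 to cKO 5 (x axis) against log2 ratio of control 1 to control 6 (y axis), both on CPM + 0.5, for the 58 tested potassium channel genes (black) and markers of microglia, neurons and endothelium (crosses). Kcnk13 lies among the microglia markers at lower left with Kcnd1 just to their right, Kcnk12 lies further out on that side, and most other channels lie at positive x with the neuron and endothelial markers.

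The K2P leak channels held the most abundant member. Kcnk13 (ENSMUSG00000045404; chromosome 12, 99964499 to 100062682 on the plus strand, GRCm38) encodes the halothane-inhibited leak channel that sets the resting potential of microglia. It had 127 CPM in control 1 and 186 in control 6, against 46.4 in cKO 2 and 184 in cKO 5. The lowest value lay in cKO 2 and the other cKO library was level with control 6, so the groups overlapped. Control averaged 157 ± 41.4 CPM and cKO 115 ± 97.3 CPM (SD over 2 libraries), and the log2 fold change was −0.44 ± 0.84. Per kilobase of exon, Kcnk13 averaged 43.7 CPM, ahead of Kcne1l at 15.2, Kcnip3 at 9.51 and Kcnk6 at 9.43. It supplied 22.4% of the members' reads in control 1 (95% exact Clopper-Pearson interval 21.6% to 23.2%), 50.1% in control 6 (48.8% to 51.3%), 6.23% in cKO 2 (5.81% to 6.66%) and 47.9% in cKO 5 (46.7% to 49.0%). The intervals cover counting error only, not the spread between libraries. Scaled to the 16 microglia markers instead of the library total, Kcnk13 had 124, 111, 117 and 126 in that order of libraries. The highest of these was 1.14 times the lowest, against 4.01 times before that scaling. The log2 fold change was 0.045 on that scale. With TMM factors and without cKO 2 it was 0.32.

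Kcnk6 (ENSMUSG00000046410; chromosome 7, 29221926 to 29232515, GRCm38) encodes a leak channel known in macrophages for the potassium efflux that precedes inflammasome activation. It had 60.5 CPM in control 1 and 27.5 in control 6, against 14.8 in cKO 2 and 53.8 in cKO 5. Its log2 fold change was −0.31 ± 0.83, and the groups overlapped. Kcnk6 shared its lowest library with Kcnk13 but not the order of the controls, since control 1 had 2.199 times the level of control 6. After scaling to microglia markers its values were 59.0, 16.4, 37.2 and 36.8 CPM, with nearly equal levels in the cKO libraries and a control on either side of them. The spread after scaling was 3.60-fold, against 4.09-fold before.

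Kcnk12 (ENSMUSG00000050138; chromosome 17, 87745837 to 87797994, GRCm38) encodes the closest relative of the Kcnk13 channel, which is largely held inside the cell and can pair with it. It stood in neither the microglial nor the neuronal list. It had 28 reads in control 1 (1.60 CPM) and 95 in control 6 (5.51 CPM), but 5 in cKO 2 (0.289 CPM) and 158 in cKO 5 (8.18 CPM). The level in cKO 5 was 28.3 times that in cKO 2, the widest gap of the members in this direction among those with more than 3 reads in cKO 2. Scaled to microglia markers it still ranged over 7.72-fold, from 0.726 CPM in cKO 2 to 5.60 CPM in cKO 5. The fitted log2 fold change was 0.28 ± 1.68.

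**Figure D4:**
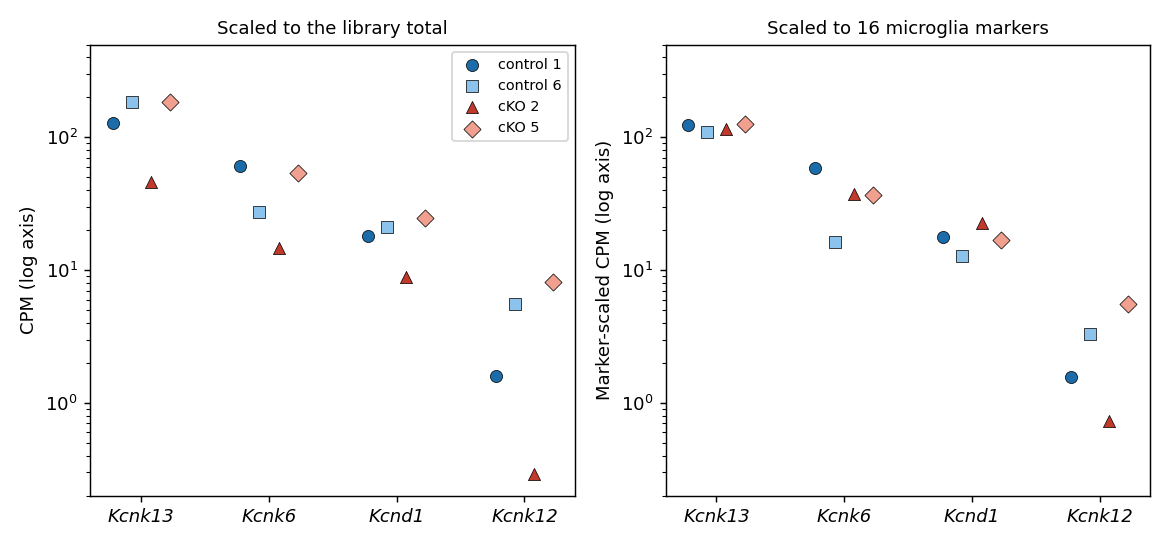
Values of Kcnk13, Kcnk6, Kcnd1 and Kcnk12 in each library as CPM of the library total (left) and scaled to 16 microglia markers (right), log axes; each point is 1 library. The 4 points of Kcnk13 draw together on the right, between 111 and 126, while those of Kcnk6 and Kcnk12 stay apart.

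Promoter sequence from RefSeq (GRCm38.p6) was available for 55 of the 77 members, and the 250 bases before the start site are shown for Kcnk13 and Kcnk12, of microglial order, for Kcnj2, of vessel order, and for Kcne1l, of neural order. Capitals mark matches, on either strand, to GAGGAA, a core read by the myeloid ETS factor PU.1, or to TGACNNNGC, the antioxidant response core read by NRF2 and by BACH1.
Kcnk13 promoter (chr12:99964249-99964498, plus strand): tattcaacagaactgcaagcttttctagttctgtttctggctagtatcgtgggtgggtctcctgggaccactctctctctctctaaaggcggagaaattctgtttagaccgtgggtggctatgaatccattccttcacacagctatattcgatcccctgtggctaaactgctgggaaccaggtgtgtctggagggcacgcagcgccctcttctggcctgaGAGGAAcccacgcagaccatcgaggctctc
Kcnk12 promoter (chr17:87797995-87798244, minus strand): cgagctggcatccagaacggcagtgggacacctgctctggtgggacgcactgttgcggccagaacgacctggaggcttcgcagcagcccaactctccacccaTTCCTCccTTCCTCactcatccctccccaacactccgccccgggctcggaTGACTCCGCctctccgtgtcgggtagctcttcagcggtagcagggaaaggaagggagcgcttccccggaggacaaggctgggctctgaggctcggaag
Kcnj2 promoter (chr11:111065914-111066163, plus strand): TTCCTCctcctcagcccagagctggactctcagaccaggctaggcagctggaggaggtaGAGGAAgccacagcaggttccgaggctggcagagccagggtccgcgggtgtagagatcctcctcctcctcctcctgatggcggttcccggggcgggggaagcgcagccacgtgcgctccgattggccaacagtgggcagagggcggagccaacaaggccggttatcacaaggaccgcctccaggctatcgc
Kcne1l promoter (chrX:142306199-142306448, minus strand): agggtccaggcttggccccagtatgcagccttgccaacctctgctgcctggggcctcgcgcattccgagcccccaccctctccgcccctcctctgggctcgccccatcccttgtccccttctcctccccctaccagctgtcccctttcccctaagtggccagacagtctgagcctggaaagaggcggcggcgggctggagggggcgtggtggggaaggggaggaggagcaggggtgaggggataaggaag
GAGGAA occurred in 20 of 78 member windows (25.6%) and in 23.3% of all 32851 windows. It began 30 bases before the start of Kcnk13, and Kcnk12 and Kcnj2 each held it more than once. Members of neural order held GAGGAA too, among them Kcna5, Kcnh7, Kcnip3, Kcnk1, Kcnk2 and Kcnk10. Of the windows shown, only that of Kcne1l, of neural order, had no match to GAGGAA. Whether the motif goes with an order was not tested. TGACNNNGC occurred in 11 member windows (14.1%) and in 10.2% of all windows, and its match in Kcnk12, TGACTCCGC, began 98 bases before the start. TTCAGCACC, the left part of the RE1 site read by the neuronal repressor REST, occurred in 1 member window (1.28%), that of Kcnh6, and in 0.301% of all windows. The motifs do not overlap one another in the windows shown, and a match is a description of these letters and no site.

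Of the 8 K2P genes tested, 4 had neural order (Kcnk1, Kcnk2, Kcnk5 and Kcnk10). Kcnk10, a stretch-sensitive and lipid-sensitive leak channel gene, had 17.6 CPM in control 1 and 3.42 in control 6, against 50.7 in cKO 2 and 1.66 in cKO 5. The value in cKO 2 was 30.6 times that in cKO 5, and the log2 fold change of 1.14 ± 1.58 became −2.50 without cKO 2. Its relative Kcnk2, named after its values were seen, had 4.12, 2.50, 31.5 and 1.61 CPM in the same order of libraries. Control 1 and control 6 were closer for Kcnk2 than for Kcnk10, with ratios of 1.65 and 5.15.

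Among voltage-gated pore subunits, 10 of 12 tested members had positive log2 fold changes (median 1.24), as did 52.8% of all genes tested. Without cKO 2, 6 of 12 did (median −0.32), beside 47.9% of all genes. Kcnd1 (ENSMUSG00000009731; chromosome X, 7822289 to 7838280, GRCm38), a gene for a rapidly inactivating A-type channel, was the most abundant of them by mean CPM. It had control values of 18.2 and 21.3 CPM, against 8.95 in cKO 2 and 24.5 in cKO 5, with a log2 fold change of −0.25 ± 0.70. Kcnd1 thus had microglial order, as did 33.2% of all genes tested, and it stood in neither list. Its marker-scaled values of 17.8, 12.7, 22.5 and 16.8 CPM spanned 1.77-fold. Kcna5 and Kcna6 are delayed-rectifier genes of the Shaker family. Kcna5 had control values of 22.3 and 4.99 CPM, against 26.3 in cKO 2 and 1.76 in cKO 5. Kcna6 had 13.8, 3.77, 18.1 and 2.38 CPM in that order. In both genes control 1 and cKO 2 were close and well above the other libraries, and by normalized CPM both genes had neural order. Kcna6 shares 39.6% of its exon bases with an opposite-strand transcript, and without a known strand setting these reads cannot be told apart. Kcna3, a channel gene of lymphocytes and activated microglia, had control values of 0.286 and 1.16 CPM beside cKO values of 1.16 and 0.881, at most 20 reads in a library.

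The silent modifier genes, whose subunits alter other channels without conducting alone, were scarce. Kcng1 had 7.96, 0.754, 11.4 and 1.55 CPM in the usual order of libraries. Kcnf1 had 0.401, 0.928 and 2.66 CPM in the first 3 of these libraries and no read in cKO 5, where 3 reads would be 0.155 CPM. Kcng2 had at most 3 reads in the libraries with a count and was not tested.

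The Kv7 genes include Kcnq3, a subunit gene of the neuronal M-current. Kcnq3 had control values of 7.33 and 2.15 CPM, against 24.4 in cKO 2 and 1.50 in cKO 5. It was highest in cKO 2 and lowest in cKO 5, so the controls lay between the cKO values. The log2 fold change was 1.28 ± 1.36, and −1.50 without cKO 2. Kcnq1, whose channel assembles with Kcne subunits in heart and epithelia, was highest in control 1 instead, with 32.5, 5.11, 22.8 and 1.66 CPM. Its antisense transcript Kcnq1ot1 shares 121 exon bases with it and had 680, 559, 564 and 1014 reads, an order unlike that of Kcnq1.

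Of the ether-a-go-go genes, 6 of 6 tested had positive log2 fold changes (52.8% of all genes tested), with a median of 1.19. Without cKO 2, 3 were positive (47.9% of all genes). Kcnh7, a neuronal member of the Erg branch, had control values of 5.21 and 2.03 CPM, against 18.5 in cKO 2 and 2.18 in cKO 5. Kcnh8 had 1.77, 0.290, 5.78 and 1.66 CPM, with a log2 fold change of 1.74 ± 1.19 that stayed positive at 0.84 without cKO 2. Kcnh5 had 1.55, 0.0580, 4.04 and 0.414 CPM. In all 3 genes cKO 5 lay within the range of the controls in CPM and cKO 2 lay above it. On the normalized scale the cKO 5 value of Kcnh8 (1.80) was just above that of control 1 (1.72), which is why Kcnh8 counts among the genes without overlap.

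The small-conductance calcium-activated channels carry the afterhyperpolarization of neurons. Kcnn2 had control values of 10.02 and 4.06 CPM, against 23.5 in cKO 2 and 1.66 in cKO 5. Kcnn3 had 5.04, 1.80, 17.97 and 3.37 CPM, and its log2 fold change of 1.50 ± 0.99 was 0.13 without cKO 2. Kcnn4, the intermediate-conductance channel of microglia and red cells, was near the floor. It had 12 reads in each control, 1 read in cKO 2 and 8 reads in cKO 5, and a log2 fold change of −1.49 ± 1.38, or −0.62 without cKO 2. The groups did not overlap for Kcnn4, at a depth of 12 reads or fewer per library.

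The inward rectifiers were led by Kcnj2 (ENSMUSG00000041695; chromosome 11, 111066164 to 111076821, GRCm38), a strong rectifier gene active in microglia and in vessels. It had 63.7 CPM in control 1 and 23.1 in control 6, against 34.0 in cKO 2 and 23.8 in cKO 5. Kcnj2 had the smallest unadjusted p among members with negative values (0.286 in edgeR), with a log2 fold change of −0.65 ± 0.53 and −0.72 without cKO 2. Without control 1 it was 0.12. It had vessel order, with control 1 highest and cKO 2 next, while control 6 and cKO 5 were nearly equal. Scaling to microglia markers widened the spread from 2.76-fold to 6.21-fold and turned the log2 fold change to 0.42. Kcnj11, the pore gene of ATP-sensitive channels, had 5.27, 2.73, 14.5 and 1.30 CPM in the usual order of libraries. Kcnj14 had 8.70, 2.84, 6.47 and 5.80 CPM. The glial rectifiers Kcnj10 and Kcnj16, which buffer potassium in astrocytes, were low in all 4 libraries. Kcnj10 had 1.89, 1.74, 3.75 and 0.414 CPM and Kcnj16 had 2.35, 0.290, 4.10 and 1.45 CPM, each highest in cKO 2.

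The auxiliary genes held the highest levels per kilobase after Kcnk13. Kcne1l encodes a single-pass subunit of the Kcne family and is X-linked. It had 26.9 CPM in control 1 and 6.38 in control 6, against 52.7 in cKO 2 and 7.77 in cKO 5. Kcnip3, a calcium-binding partner of A-type channels that also acts as a transcriptional repressor, had 27.6, 20.02, 69.1 and 18.1 CPM in that order. The log2 fold changes were 0.72 ± 1.06 for Kcne1l and 0.72 ± 0.63 for Kcnip3, and both were negative without cKO 2, at −0.94 and −0.27. Kcnip3 kept 18.1 CPM or more in the libraries with the least neuron marker RNA, where Kcne1l had between 6.38 and 7.77 CPM. Kcne4 was at 21.5 and 4.76 CPM in control 1 and 6 and at 19.1 CPM in cKO 2, without a read in cKO 5, where the floor was 0.155 CPM. Kcne3 had 2.35, 0.232, 1.10 and 0.104 CPM. Both of these Kcne genes had the order of the vessel markers, in contrast to Kcne1l.

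Summed over the list of neuronal channels, 37 of 40 of which were in the tables, levels were 97.2, 53.1, 314 and 46.6 CPM. This list made up 42.2% of all member reads in cKO 2 (95% exact Clopper-Pearson interval 41.3% to 43.0%) and 12.1% in cKO 5 (11.4% to 12.9%). In the controls it made up 17.1% in control 1 (16.4% to 17.9%) and 14.3% in control 6 (13.4% to 15.2%). The microglial list of 5 summed to 253, 238, 96.4 and 263 CPM, which was 44.4% of member reads in control 1 (43.4% to 45.4%), 64.2% in control 6 (63.0% to 65.4%), 12.9% in cKO 2 (12.4% to 13.5%) and 68.4% in cKO 5 (67.3% to 69.4%). The intervals of both lists cover counting error only, not the spread between libraries. The control sums were close although single genes differed, since Kcnk13 was higher in control 6 and Kcnk6 and Kcnj2 were higher in control 1. The median log2 fold change was 1.28 for 26 neuronal channels tested and −0.44 for the microglial ones, none past the threshold. Without cKO 2 both medians turned, to −1.04 (27 tested, unchanged with its 4 genes at 0 in cKO 5 set at 3 reads) and 0.32. Without cKO 2, neuron markers had a median of −0.74, endothelial markers one of −2.46 and microglia markers one of 0.18. The neuron, endothelial and microglia marker levels given above move with these values, and their part in the channel differences was not tested.

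Other genes of potassium handling were read from a list of 32 pumps, cotransporters and channel partners, of which 26 were tested. None passed the threshold in either direction (edgeR, adjusted p 0.9997 for each). Log2 fold changes were positive for 17 and negative for 9, with a median of 0.61, where 52.8% of all genes tested were positive. Without cKO 2 the direction turned, with 11 of 27 positive (47.9% of all genes) and a median of −0.43. Order among them was neural for 14 (24.2% of all genes tested had it) and microglial for 7 (33.2%). Atp1b3, a beta subunit gene of the sodium-potassium pump, had the highest mean CPM of the list. Atp1b3 had control values of 417 and 471 CPM, against 201 in cKO 2 and 493 in cKO 5. It was lowest in cKO 2 and had microglial order. Cntn2, an axonal adhesion gene that clusters Shaker channels, had 111, 25.5, 342 and 20.2 CPM, with neural order. The A-type channel partners Dpp10 and Dpp6 had the smallest unadjusted p of the list (0.0641 and 0.222 in edgeR). Dpp10 had 0.172 CPM in control 1, no read in control 6, and cKO values of 1.96 and 1.09 CPM, and Dpp6 had 4.18, 0.696, 12.6 and 3.32 CPM.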

How the data were processed

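RNA from cortical microglia of mouse embryos at embryonic day 16 was sequenced in 4 libraries, 2 per genotype. Per the submitters' processing notes, Bowtie2 2.2.3, TopHat2 2.0.12, HTSeq 0.6.0 and mm9 were used; the deposited gene positions were identical to GRCm38 for 90.3% of 21922 genes compared. Strand of counting was not given in the sources used here. The authors deposited 4 tables, each of 1 cKO against 1 control library, with read counts per gene, CPM values, a log2 fold change and its p-value and adjusted p-value. The authors' calls follow an unadjusted p-value under 0.05 and a log2 fold change of at least 1 in size.

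The deposited counts were joined by Ensembl identifier. Genes with a count in every library were tested with edgeR 4.0.16 (TMM factors, filterByExpr with a minimum count of 10, quasi-likelihood test, Benjamini-Hochberg adjustment, threshold 0.05) in R 4.3.3. CPM were computed on library totals, and normalized CPM on TMM-scaled totals. The steps were tested on simulated counts, in which the libraries did not differ in cell content. DESeq2 1.42.0, limma-voom (limma 3.58.1), other scalings and filters, and leaving out each library were the alternatives. Exon lengths came from the GENCODE annotation. The members, lists and tests were chosen with earlier results of these data known. Named genes were the microglial and glial channels, Kcnk12, chosen whatever its values, and the 3 most abundant of each family. The 3 smallest p in each direction and genes of at least 5 CPM without overlap between groups were also named. So were the 3 largest and 3 smallest ratios of cKO 2 to cKO 5 at that level. Of the potassium partners, the 3 most abundant and the 3 of smallest p were named. Some genes that this rule names are not reported here.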

Additional observations from a re-analysis of the deposited data

How the results depend on the processing

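No member passed the adjusted threshold under any of the 11 alternatives. No paired analysis was possible because the groups share no replicate number. With 2 libraries per genotype, a biological coefficient of variation of 0.652 and 2 residual degrees of freedom, the precision is limited. With 1 library left out the lone sample of its group is assumed to vary like the other group.

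Counts of members at an unadjusted p under 0.05 were 1 with library totals only (0.301% of all genes), 2 with no filter on low counts (0.796%) and 2 after scaling on microglia markers (0.301%), against 0. That scaling, under which 95.5% of all genes were positive, gave 5 of 58 members above both controls (12.05% of all genes), and median log2 fold changes of 2.38 for members, 2.77 for neuronal channels and 0.045 for microglial ones, where the median of all genes moved from 0.03 to 1.18. It turned Kcna5 to 1.44, Kcnd1 to 0.37, Kcne3 to 0.19, Kcne4 to 1.01, Kcnj2 to 0.42, Kcnk13 to 0.045 and Kcnq1 to 0.75. With library totals only, Kcna5 was 0.041. Kcnj10, at 0.00 in the reported fit, was −0.015 in DESeq2, −0.015 with RLE factors, −0.0035 with no filter and −0.52 in limma-voom. limma-voom also turned Kcna6 to −0.20, Kcnf1 to −1.19, Kcnk12 to −1.05 and Kcnn2 to −0.069, with a median of 0.23 for members. The cause was not tested.

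Without 1 library, members at an unadjusted p under 0.05 numbered 1 to 11, members with every cKO value above every control value 12 to 47 and below 3 to 27. Without cKO 5, 11 of 62 members were at that p (10.5% of all genes), 47 were above (39.7%) and 5 below (35.9%). Without cKO 2 these numbers were 3 of 59 (3.49%), 12 (33.2%) and 27 (33.0%). Without control 1 they were 2 of 63 (0.236%), 23 (24.4%) and 3 (24.0%), and without control 6 they were 1 of 64 (0.0583%), 14 (20.7%) and 11 (21.9%). Medians ranged from −1.04 to 1.58 for members, −1.79 to 0.32 for microglial and −1.04 to 2.07 for neuronal channels, each reversed without cKO 2. Leaving out 1 library at a time gave log2 fold changes of Kcna3 −0.38 to 1.80, Kcna5 −2.79 to 1.15, Kcna6 −1.72 to 1.12, Kcnd1 −1.40 to 0.41, Kcne1l −0.94 to 1.93, Kcne3 −3.38 to 1.02, Kcne4 −10.80 to 0.63. Further ranges were Kcnf1 −6.59 to 1.71, Kcng1 −1.30 to 2.78, Kcnh5 −0.76 to 4.79, Kcnh7 −0.59 to 2.14, Kcnip3 −0.27 to 1.30, Kcnj10 −2.00 to 0.80, Kcnj11 −1.49 to 1.63. Further ranges were Kcnj14 −0.50 to 0.94, Kcnj2 −1.16 to 0.12, Kcnk10 −2.50 to 2.57, Kcnk12 −3.88 to 1.56, Kcnk13 −2.02 to 0.32, Kcnk6 −1.79 to 0.43, Kcnn2 −1.94 to 1.52. Further ranges were Kcnq1 −3.33 to 0.92 and Kcnq3 −1.50 to 2.24. Signs held for Kcnab2 (0.15 to 0.43), Kcnh8 (0.84 to 3.38), Kcnj16 (0.18 to 2.97), Kcnn1 (0.99 to 1.65), Kcnn3 (0.13 to 2.26), Kcnn4 (−3.66 to −0.62), Kcnrg (1.65 to 4.73) and Kcnt1 (3.37 to 6.76). The groups did not overlap for Kcnab2, Kcnh8, Kcnn1, Kcnn4, Kcnrg and Kcnt1 on normalized CPM. In those genes, leaving out 1 library could turn the sign only through rescaling, so the held signs are no added support. The lowest values of Kcne4 and Kcnf1 are fitted against no read in cKO 5 and depend on the prior count.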
